A study of Rattus norvegicus with 14 samples.

Results

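The matrix metalloproteinases, the ADAMTS proteases with their ADAMTS-like relatives, and the tissue inhibitors of metalloproteinases (TIMPs) were followed across 7 rat cell lines on 14 one-colour Agilent arrays. Members were all genes whose name in the scanner files begins with Mmp, Adamts or Timp and a number, or with Adamtsl, which gave 45 of 35522 gene names. They comprised 23 Mmp genes, 14 Adamts genes, 4 Adamtsl genes and 4 Timp genes, measured by 52 probes. Where a gene had more than 1 probe, the brightest on average over the arrays stood for it. Values are log2 processed signals minus the 75th percentile of the same array, so 0 marks the level of that percentile. They allow one gene to be compared between lines, and do not allow one gene to be set against another.

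Blastocyst lines were Fi1 (Fischer, male), Fi2 (Fischer, female) and Wk8 (Wistar-Kyoto, female). Bone marrow lines were CL19 (female), 3C3 and RMAPC-1 (both male), all Fischer, and the mesenchymal control was RClone-2 (Fischer, male). The series title describes the blastocyst and bone marrow lines as derived in the culture condition of multipotent adult progenitor cells (MAPC), with features of nascent hypoblast, the extraembryonic endoderm layer of the blastocyst. Both kinds are called stem cell lines here. Each line had an array A and an array B, and the labels do not say whether these came from separate cultures, so the line mean was the unit of every test. The p-values therefore describe the spread between lines, and the single mesenchymal line took its spread from the other 6. Strain, and with it line Wk8, cannot be told apart from other features of that line.

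Metalloproteinases of these families are secreted or membrane-bound zinc enzymes, made as inactive proenzymes, that cut collagens, proteoglycans, fibronectin and cell surface proteins. TIMPs bind the active site and block it, and TIMP3 stays attached to the matrix and also inhibits several ADAMTS enzymes. ADAMTS-like proteins share the matrix-binding domains of ADAMTS proteases and lack the protease domain. In the early embryo such enzymes take part in invasion and in turnover of basement membrane, a matrix that hypoblast-derived cells lay down in quantity, while fibroblast-like cells use them to remodel interstitial collagen.

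The arrays held 41012 probes each, and 61.8 to 68.1% of spots were well above background by the scanner software, with 0 saturated. Of the 6 primitive endoderm markers (Gata4, Gata6, Sox17, Sox7, Foxa2 and Pdgfra) all were higher in the stem cell lines than in RClone-2, by 6.51 to 10.50 on the log2 scale. The list's mean log2 signal was 4.22 to 4.62 in the stem cell lines and -3.76 in RClone-2, where Sox7 was not above background. Sox7 was therefore tested only through stem cell lines. All 7 tested mesenchymal markers were lower in the stem cell lines, with a mean log2 signal of -4.89 to -4.56 over the list of 8 against 1.95 in RClone-2. Thy1 and Prrx1 were on 0 of 12 stem cell arrays above background. Both were tested only because RClone-2 passed background, so they had to lie higher there. Of 7 macrophage and blood markers on the array, Ptprc, Itgam and Aif1 were not tested because they passed background on no line's pair of arrays. The other 4 were above background on all 14 arrays, and of them Cd14 (-5.32) and Csf1r (-1.18) were lower in the stem cell lines, Cd68 (0.96) higher, and Laptm5 (-0.55) did not pass. The list's mean log2 signal was -4.71 to -4.43 in the stem cell lines and -3.68 in RClone-2. Of the 5 endothelial markers, 4 were higher in the stem cell lines, and Kdr, Tek and Tie1 were also higher in blastocyst than in bone marrow lines. Pecam1, Tek and Tie1 were not above background in RClone-2 and were tested only through stem cell lines, which favoured a higher signal there. Between origins Pecam1 (1.60) and Cdh5 (-0.15) did not pass. From the other marker lists Gata6 (-0.54), Foxa2 (-0.63) and Col1a1 (-0.91) passed, with blastocyst lines below bone marrow lines. Across all genes tested, 8.25% passed upward and 24.6% downward from bone marrow to blastocyst lines. The called markers move with the comparisons below, and their part in the members' values was not tested. In bulk RNA, fewer cells of a type and less RNA per cell cannot be told apart.

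A member was tested where 1 or more of the lines gave a signal well above background on array A and on array B, which held for 31 of the 45. The other 14 were never above background on both arrays of a line: the protease genes Mmp1a, Mmp7, Mmp8, Mmp9, Mmp12, Mmp17, Mmp20, Mmp21, Mmp27, Adamts14, Adamts17 and Adamts19, and Adamtsl1 and Adamtsl2. Mmp9, the second gelatinase, was above background on 1 of 2 mesenchymal arrays and on 0 of 12 stem cell arrays. Mmp1a, Mmp17 and Adamts14 were each above background on 1 stem cell array. Being below background sets only an upper bound on these genes. At the other end 16 members were above background on all 14 arrays, among them Mmp2, Mmp14, Mmp24, Adamts9, Timp1 and Timp2. A further 5 members, Mmp3, Mmp10, Adamts5, Adamts8 and Adamts12, were above background on both RClone-2 arrays and on no stem cell array. Another 5, Mmp13, Mmp19, Adamts6, Adamtsl3 and Adamtsl4, were above background on 1 to 3 stem cell arrays, never on both of one line. These 10 members were tested only because RClone-2 passed the filter, so they had to lie higher there, and their differences and p-values are given as description. Likewise Adamts4, Mmp25 and Timp3 passed only through stem cell lines, and the other 18 through both sides.

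**Figure D1:**
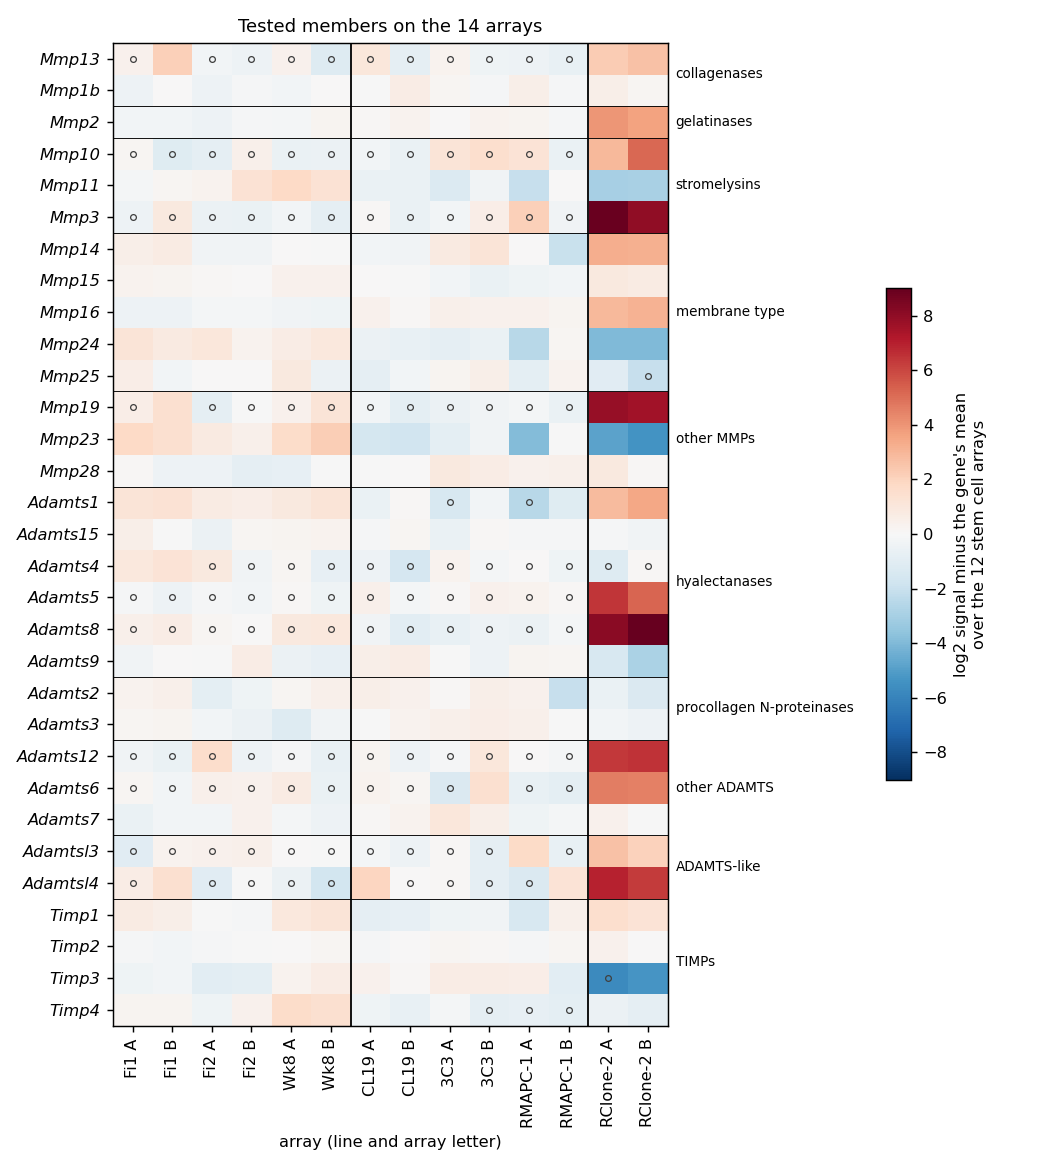
Heat map of the 31 tested members (rows, grouped by role) on the 14 arrays (columns); colour is the log2 signal minus the gene's own mean over the 12 stem cell arrays, and circles mark signals not well above background. The RClone-2 columns stand apart in both directions, with Mmp3, Mmp19 and Adamts8 among the reddest and Mmp23, Mmp24 and Timp3 among the bluest cells.

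Against the mesenchymal line the members went in both directions. With limma and Benjamini-Hochberg adjustment over all 24856 genes tested, 22 of the 31 tested members passed an adjusted p of 0.05, of which 16 were lower in the stem cell lines and 6 higher. That split was largely set by the filter, since 10 of the 16 were the members tested only through RClone-2 and 2 of the 6, Mmp25 and Timp3, passed only through stem cell lines. Of all genes, 47.2% passed in this comparison, 24.8% higher and 22.4% lower. Among the 18 members that passed the filter through both sides, 6 were lower (Mmp2, Mmp14, Mmp15, Mmp16, Adamts1 and Timp1), 4 higher (Mmp11, Mmp23, Mmp24 and Adamts9) and 8 did not pass. Of the 20304 genes of that kind 21.9% were lower and 21.2% higher. Line means of the 6 stem cell lines all lay on one side of RClone-2 for 25 of the 31 members and for 64.5% of all genes tested. Those 25 include the 10 members tested only through RClone-2, and Mmp25 and Timp3, whose side the filter largely set. Of the 24856 genes tested, 1321 passed the filter only through RClone-2 and 3231 only through stem cell lines. The mix of genes differed, so the count of members cannot be compared with the share of all genes. Normexp background correction, with an offset of 50, drew in members that were dim in one group (Mmp3 -3.83, Mmp19 -3.43, Adamts8 -4.27, Adamts12 -1.99, Adamts5 -1.45, Adamts6 -1.44, Adamtsl4 -3.13, Adamts1 -1.64, Mmp16 -1.74, Mmp11 1.60 and Timp3 2.52), and those calls held. Among the 16 members above background on every array, which the filter could not favour, 9 passed, 4 of them higher than in RClone-2 and 5 lower. Of the 17898 genes above background on every array, 4291 were higher and 3515 lower.

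**Figure D2:**
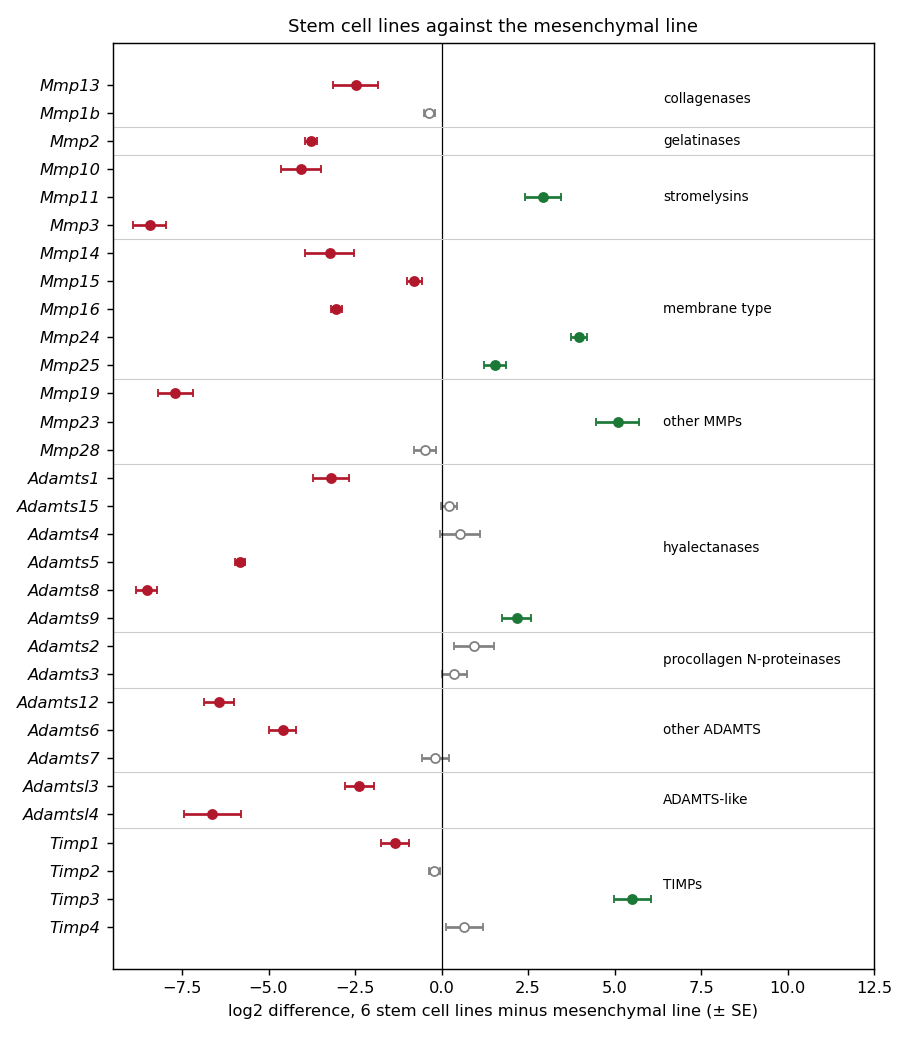
Log2 difference (x axis) between the mean of both origins and the mesenchymal line for each tested member, grouped by role; bars are standard errors, filled symbols passed an adjusted p of 0.05 (red lower, green higher in the stem cell lines) and open symbols did not. The 10 members tested only through RClone-2 all lie below 0. Differences run from -8.52 (Adamts8) to 5.52 (Timp3).

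The interstitial collagenases and stromelysins lie together in the rat. In rn4, the build of the files, probes of 10 members fall at chr8:4168554-4533706 in the order Mmp13, Mmp12, Mmp1b, Mmp3, Mmp1a, Mmp10, Mmp8, Mmp27, Mmp20 and Mmp7. Only 4 of the 10 were tested. Of these Mmp3, Mmp10 and Mmp13 passed background on both arrays in RClone-2 alone, and Mmp1b on all 14 arrays. The bases upstream of their starts are shown because these neighbours differ in where they were detected. They are the 250 bases before each RefSeq start (build GRCr8), 5′ to 3′ on the gene's strand, with matches to the AP-1 motif TGANTCA on either strand in capitals.
Mmp3 (chr8:12925031-12925280, plus strand): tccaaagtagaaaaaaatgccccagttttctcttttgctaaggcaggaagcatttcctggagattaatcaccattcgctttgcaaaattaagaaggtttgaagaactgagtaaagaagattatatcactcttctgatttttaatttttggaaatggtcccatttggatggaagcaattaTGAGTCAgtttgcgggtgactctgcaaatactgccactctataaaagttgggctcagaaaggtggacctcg
Mmp10 (chr8:12974457-12974706, plus strand): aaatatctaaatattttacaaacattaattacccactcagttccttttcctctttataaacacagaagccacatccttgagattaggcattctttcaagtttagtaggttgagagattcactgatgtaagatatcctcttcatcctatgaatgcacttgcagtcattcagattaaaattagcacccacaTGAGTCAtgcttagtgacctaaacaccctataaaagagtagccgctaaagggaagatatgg
Mmp13 (chr8:12782579-12782828, plus strand): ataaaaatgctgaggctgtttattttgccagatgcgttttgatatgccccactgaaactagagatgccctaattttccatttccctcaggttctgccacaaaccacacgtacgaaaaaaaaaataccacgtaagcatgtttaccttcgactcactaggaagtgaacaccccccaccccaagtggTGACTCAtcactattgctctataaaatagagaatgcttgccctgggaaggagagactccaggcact
Mmp1b (chr8:12891126-12891375, minus strand): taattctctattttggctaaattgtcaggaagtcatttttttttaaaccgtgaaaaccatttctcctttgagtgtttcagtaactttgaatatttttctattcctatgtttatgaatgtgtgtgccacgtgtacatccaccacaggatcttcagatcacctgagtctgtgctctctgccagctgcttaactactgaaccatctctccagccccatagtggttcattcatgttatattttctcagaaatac
Counted back from the start, the motif began at position -71 in Mmp3, -61 in Mmp10 and -66 in Mmp13, and the nearest TATAAA match on either strand began at -32, -33 and -47. The motifs do not overlap there. Mmp1b, which was not called, held neither set of letters in this window. AP-1 matches were present before 6.34% of 33469 RefSeq starts. RefSeq gave 38 starts for 34 members, and 6 starts held the motif, those of Mmp3, Mmp7, Mmp10, Mmp12, Mmp13 and Mmp20, all of them in this cluster. Among called members with a start, the motif was found for 3 of 10 lower and 0 of 6 higher in the stem cell lines. Those 3 are Mmp3, Mmp10 and Mmp13, neighbours tested only through RClone-2, so the filter set their direction. A link between the motif and direction was not tested. TATAAA matched before 12.9% of all starts and before 12 of the 38. The PEA3 letters AGGAAG matched before 29.5% and before 15 of the 38. For the GATA letters AGATAA these were 10.3% and 3 of the 38, those of Mmp8, Mmp24 and Mmp27. A match is a run of letters and not a measured binding site.

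Mmp3, stromelysin 1, which cuts proteoglycans and activates other proenzymes, was at 0.90 and -0.01 on the RClone-2 arrays. On the 12 stem cell arrays it lay between -8.77 and -5.88, none of them above background. RClone-2 was at least 103-fold higher, computed against the lowest signal that passed background on each array, with a fitted difference of -8.44 ± 0.47 (SE) and a limma adjusted p of 4.72e-05. All "at least" values below were computed that way. They hold for the main processing and are not a floor under other background correction, since normexp gave a difference of -3.83 for Mmp3. Mmp10, stromelysin 2, was at -4.91 and -2.66 on the RClone-2 arrays, which differ by 4.74-fold, and on no stem cell array above background. It was at least 5.49-fold higher in RClone-2 (fitted difference -4.05 ± 0.58, adjusted p 0.00237), a call lost with normexp background correction (-0.89). Mmp13, collagenase 3, was above background on both RClone-2 arrays (-5.23 and -4.87) and on 1 of 12 stem cell arrays, array B of Fi1 at -5.42. The bound was 2.13-fold. Its fitted difference was -2.48 ± 0.64 with an adjusted p of 0.0218, which did not hold with normexp (-0.22), with the slide as a block, with a term for the slide pair or on the B arrays alone. Mmp1b, a rodent interstitial collagenase gene, was above background on all 14 arrays and had line means from -5.14 in Fi2 to -4.52 in RClone-2, with a difference of -0.35 ± 0.16 (adjusted p 0.123). Away from the cluster Mmp11, stromelysin 3, went the other way and is described with the genes that differ by origin.

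The probes of the 3 members with the lowest and the 2 with the highest difference from RClone-2 are shown so that each signal can be traced to its letters. They are the 60-base oligonucleotides given in the scanner files, 5′ to 3′, with rn4 positions.
Mmp3 (chr8:4325061-4325526): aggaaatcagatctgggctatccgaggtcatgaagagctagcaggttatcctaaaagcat
Mmp19 (chr7:2098675-2098734): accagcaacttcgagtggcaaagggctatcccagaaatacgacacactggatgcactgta
Adamts8 (chr8:30742938-30742997): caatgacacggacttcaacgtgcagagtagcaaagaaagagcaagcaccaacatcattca
Mmp23 (chr5:172487032-172487091): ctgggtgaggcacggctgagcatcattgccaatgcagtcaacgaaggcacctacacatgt
Timp3 (chr7:19679721-19679780): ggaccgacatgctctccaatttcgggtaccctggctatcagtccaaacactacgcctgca
The Mmp3 probe covers 466 bases of the genome, more than its own 60, so its letters are interrupted there. Both Mmp10 and Timp1 have probes of this kind, covering 732 and 1004 bases. The other 4 probes printed match one uninterrupted stretch.

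Gelatinase A, Mmp2, degrades denatured collagen and basement membrane collagen and is activated at the cell surface by Mmp14 together with TIMP2. Its line means were between -3.49 and -3.01 in the 6 stem cell lines and 0.56 in RClone-2. The difference was -3.78 ± 0.17 (adjusted p 2.16e-05), a 13.7-fold lower signal. A further Mmp2 probe, spotted 10 times per array, gave a difference of -8.85, with line means of -5.71 to -3.73 in the stem cell lines and 4.13 in RClone-2. The rule took the first probe because it was brighter on average. With normexp correction the rule took the 10-spot probe and the difference was -6.93. The end of the 10-spot probe and the start of the probe used share 21 bases with 3 mismatches, shown with the differing bases in capitals.
Mmp2, end of the 10-spot probe: ttgtcGgacatcActgcaCga
Mmp2, start of the probe used: ttgtcTgacatcGctgcaTga
Counted from the 5′ end of this stretch, the 10-spot probe first, the changes are G6T, A13G and C19T. The probe used carries no genome position in the files and is listed under an older sequence record. Both probes place RClone-2 above every stem cell line, and the size of the difference rests on the probe.

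Membrane-type metalloproteinases went in both directions, with 3 of the 5 tested lower and 2 higher in the stem cell lines. Mmp14, the main activator of Mmp2 and itself a collagenase, was at 4.52 and 4.50 on the RClone-2 arrays. The stem cell line means were 1.88, 0.96 and 1.28 in Fi1, Fi2 and Wk8, and 0.98, 2.26 and 0.28 in CL19, 3C3 and RMAPC-1. RClone-2 was above every one of them, 9.40-fold, with a difference of -3.23 ± 0.70 (adjusted p 0.0117). The call was lost when the slide pair was a term of the fit, within slides 2 and 4 and on the B arrays alone, where the difference was -3.04, -3.24 and -3.35. Mmp16 (MT3-MMP) was 8.21-fold lower in the stem cell lines, with a difference of -3.04 ± 0.16 (adjusted p 4.26e-05). Its other probe was above background on both RClone-2 arrays at a mean of 2.14 and on no stem cell array, at least 334-fold higher in RClone-2. Mmp15 (MT2-MMP) differed by -0.79 ± 0.22 (adjusted p 0.0281), a call lost under 5 of 22 alternatives, among them leaving out Fi1 (-0.80) or RMAPC-1 (-0.77). Mmp25 (leukolysin), higher in the stem cell lines by 1.55 ± 0.32 (adjusted p 0.00931), was above background on 1 of 2 RClone-2 arrays and lost its call under 4 of 21.

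Mmp24 (MT5-MMP), best known from the nervous system, where it cuts N-cadherin, had the largest positive difference of the 5 tested membrane-type members. Line means were 3.53, 3.19 and 3.33 in the blastocyst lines, 1.91, 1.81 and 1.39 in the bone marrow lines, and -1.45 in RClone-2. The 3 groups did not overlap. Stem cell lines were 15.7-fold above RClone-2, a log2 difference of 3.98 ± 0.24 (adjusted p 6.46e-05).

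Among the remaining metalloproteinases Mmp19, which degrades basement membrane proteins, was at 0.27 and 0.03 on the RClone-2 arrays and above background on 1 of 12 stem cell arrays, array B of Fi1 at -6.09. RClone-2 was at least 80.0-fold higher. The fitted difference was -7.69 ± 0.50 (adjusted p 9.55e-05). A weaker Mmp19 probe gave -5.21 and was on no stem cell array above background. Mmp23, an unusual member without the hemopexin domain that most of the family carry, had the opposite pattern. Its line means were 2.44, 1.44 and 2.71 in Fi1, Fi2 and Wk8, -0.85, 0.19 and -1.17 in CL19, 3C3 and RMAPC-1, and -4.30 in RClone-2. Stem cell lines were 34.1-fold above RClone-2 (5.09 ± 0.62, adjusted p 0.00127). Mmp28, epilysin, did not pass (-0.48 ± 0.32, adjusted p 0.259), and its RClone-2 mean of 1.27 lay among the stem cell lines.

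**Figure D3:**
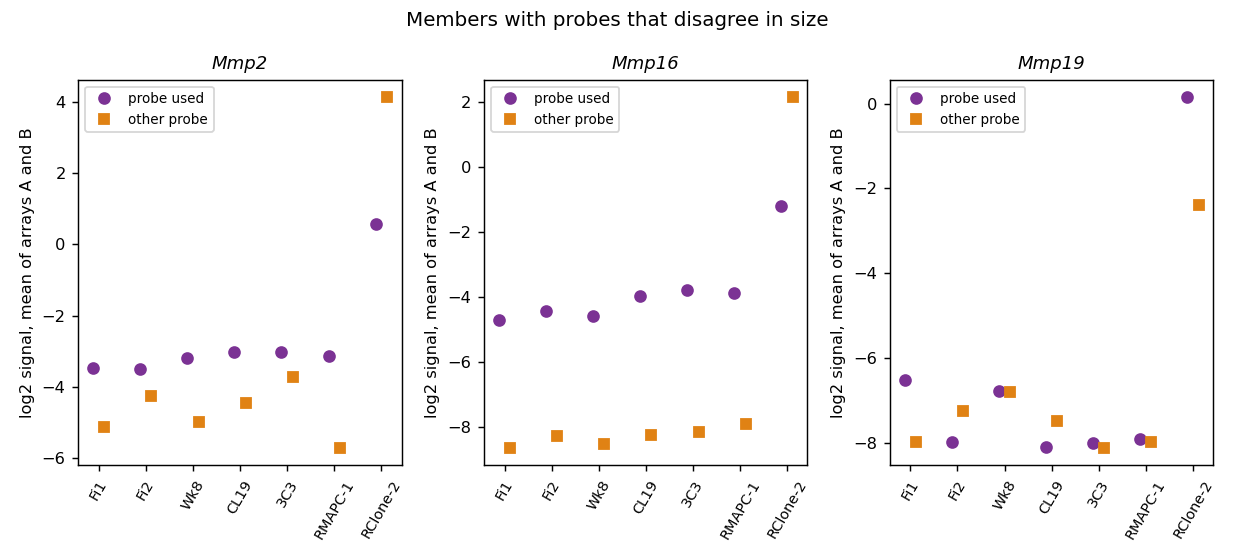
Log2 signal (y axis, mean of arrays A and B) in each line for the probe used and the other probe of Mmp2, Mmp16 and Mmp19. Both probes of each gene are highest in RClone-2, and the distance to the stem cell lines differs between them, for Mmp2 -3.78 against -8.85.

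The hyalectanases, ADAMTS proteases that cut aggrecan, versican and related proteoglycans, had 6 tested members, of which 3 were lower and Adamts9 was higher in the stem cell lines. Of the 3, Adamts5 and Adamts8 were tested only through RClone-2. Adamts8 was at 0.51 and 1.35 on the RClone-2 arrays and between -8.56 and -6.63 on the stem cell arrays, none above background. RClone-2 was at least 144-fold higher (fitted difference -8.52 ± 0.30, adjusted p 7.85e-06). Adamts5, the main aggrecanase of mouse cartilage, was at -2.11 and -3.30 on the RClone-2 arrays and above background on no other, at least 11.6-fold higher (fitted difference -5.82 ± 0.14, adjusted p 2.29e-06). Adamts1 was at -1.44 and -0.82 in RClone-2 and above background on 10 of 12 stem cell arrays, with a difference of -3.19 ± 0.52 (adjusted p 0.00403). Adamts9, which cuts versican and is conserved in nematodes as a gene of gonad migration, was the exception. It was named after its values were seen, being outside the rule for named genes. Its line means were 2.17, 2.64 and 1.69 in the blastocyst lines, 2.92, 2.08 and 2.53 in the bone marrow lines and 0.17 in RClone-2, 4.51-fold higher in the stem cell lines (2.17 ± 0.42, adjusted p 0.0075). Adamts4 and Adamts15 did not pass, with differences of 0.53 ± 0.57 and 0.20 ± 0.23.

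2 pairs of ADAMTS genes are neighbours. Probes of Adamts1 and Adamts5 lie 69395 bases apart on rat chromosome 11 in rn4, at 25434208-25434267 and 25503663-25503722. Adamts1 was lower in the stem cell lines, and Adamts5, tested only through RClone-2, had to be. Probes of Adamts15 and Adamts8 lie 56363 bases apart on chromosome 8. Adamts8 passed background in RClone-2 alone, and Adamts15 was above background on all 14 arrays, with line means from -4.94 to -4.39.

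Of the 3 other ADAMTS members tested, Adamts12 and Adamts6 passed the filter only through RClone-2. Adamts12, which cuts cartilage oligomeric matrix protein (Comp), was at -1.73 and -1.65 on the RClone-2 arrays and above background on no stem cell array, at least 23.5-fold higher (fitted difference -6.44 ± 0.44, adjusted p 0.000109). Adamts6 was at -2.37 and -2.44 in RClone-2 and above background on 1 stem cell array, at least 14.03-fold higher, with a difference of -4.59 ± 0.39 (adjusted p 0.000275). Adamts7, the closest relative of Adamts12 and a Comp-cutting enzyme too, was above background everywhere, with line means of 1.64 to 2.83 and a difference of -0.18 ± 0.38 (adjusted p 0.728). The procollagen N-proteinases, which trim fibrillar procollagens, had 2 tested members, Adamts2 and Adamts3, and neither passed (0.94 ± 0.58 and 0.37 ± 0.36). Both tested ADAMTS-like genes passed the filter only through RClone-2. Adamtsl4, a fibrillin-binding protein, was at 0.20 and -0.41 in RClone-2 and above background on 3 of 12 stem cell arrays, with a bound of 58.0-fold (-6.62 ± 0.83, adjusted p 0.00141). Adamtsl3, above background on 1 of 12 stem cell arrays, was at least 2.95-fold higher in RClone-2 (-2.37 ± 0.42, adjusted p 0.00537). That call was lost under 4 of 21 alternatives, with normexp correction at -0.37 (adjusted p 0.684) and without array B of RMAPC-1 at -2.17.

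The 4 inhibitors did not move as a group: 1 was higher, 1 lower and 2 did not pass. Timp3 was at -1.28, -1.92 and -0.51 in the blastocyst lines, -0.75, -0.30 and -1.14 in the bone marrow lines, and -6.70 and -6.30 on the RClone-2 arrays, of which 1 was above background. The difference of 5.52 ± 0.53 (adjusted p 0.000466) was the widest among members higher in the stem cell lines. With the array below background set at the lowest signal that passed, the stem cell lines were at least 37.5-fold higher. Timp1, a secreted inhibitor, ran against it, at 6.50 and 6.23 on the RClone-2 arrays and with line means of 4.23 to 6.05 in the stem cell lines. Its difference of -1.36 ± 0.40 (adjusted p 0.035) lost its call under 13 of 22 alternatives, among them leaving out Fi1, CL19, 3C3 or RMAPC-1 (-1.39, -1.30, -1.41 and -1.37) and either array of RMAPC-1 (-1.19 and -1.52 without A and B). Timp2 had line means of 8.39 to 8.76 over all 7 lines and a difference of -0.21 ± 0.16 (adjusted p 0.327). Timp4 did not pass (0.65 ± 0.54, adjusted p 0.355), with its 2 highest arrays in Wk8.

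**Figure D4:**
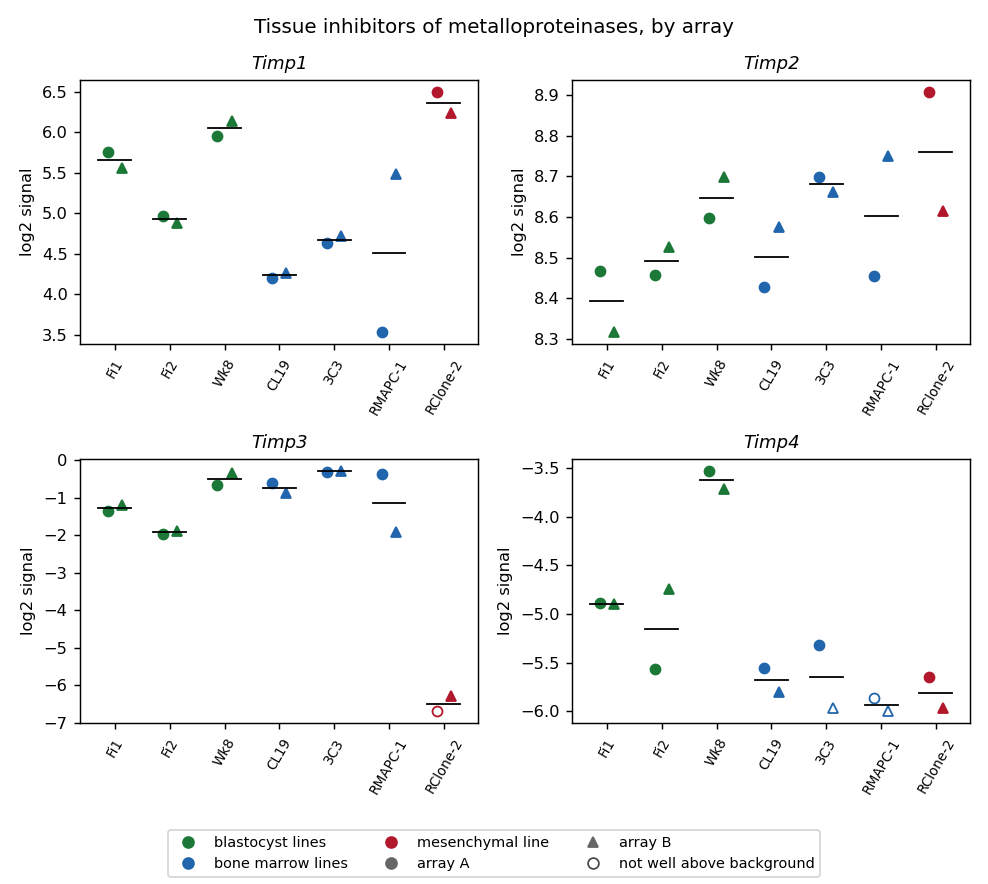
Log2 signal (y axis, each panel on its own scale) of the 4 TIMP genes on arrays A and B of each line; bars are line means and open symbols are not well above background. Timp3 separates RClone-2 (-6.50) from the stem cell lines, and Timp2 line means stay between 8.39 and 8.76.

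Between blastocyst and bone marrow lines the set moved less. With limma and Benjamini-Hochberg adjustment, 8 of the 31 tested members passed an adjusted p of 0.05, 6 of them higher in blastocyst lines and 2 lower, and 13 passed an unadjusted p of 0.05. Over all genes, 32.8% passed, 8.25% higher and 24.6% lower, and 46.1% passed an unadjusted p of 0.05. Line means of the 2 origins did not overlap for 13 members and for 52.3% of all genes tested. The median difference was 0.07 over the tested members and -0.22 over all genes tested. Both Adamts8 (1.03 ± 0.23) and Adamts5 (-0.40 ± 0.11) passed although neither was above background on any blastocyst or bone marrow array, so no fold is given for them. That left Mmp23, Mmp24, Mmp11, Adamts1 and Timp1 higher, and Mmp16 lower, in the blastocyst lines. The split of called members depended on the scaling, with 7 higher and 1 lower after quantile normalization or the percentile over detected probes, 11 and 0 without scaling, and 5 and 5 with spike-in scaling. Spike-in scaling moved the median of all genes to -0.48, and no scaling moved it to 0.26.

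Slide and origin overlap in this design. Slides 1 and 3 held the 3 blastocyst lines and CL19, and slides 2 and 4 held 3C3, RMAPC-1 and RClone-2. With a term for the slide pair 0 members and 0 of all genes passed in limma, with 7 members and 6514 genes at an unadjusted p under 0.05. Within slides 1 and 3 alone 0 passed, with 6 members and 5255 genes at an unadjusted p under 0.05. That within-slide comparison has CL19 as its only bone marrow line. All 6 members kept their direction there, which was fixed in advance because their line means did not overlap between origins. Leaving out 3C3 left 2 calls, leaving out RMAPC-1 left 3 and leaving out Fi1 left 4. Over all genes 8155 passed with all lines, and 3104, 3094 and 3711 without 3C3, RMAPC-1 and Fi1.

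The arrays of RMAPC-1 also differed from each other more than those of other lines. Among its 18 members above background on both arrays, 8 differed by more than 1 on the log2 scale, against 0 or 1 in the other 5 stem cell lines and 3 of 28 in RClone-2. Mmp23 was at -3.12 on array A and 0.77 on array B, a 14.8-fold gap. Mmp24 was at 0.07 and 2.72, Timp1 at 3.54 and 5.48, and Mmp11 at -3.50 and -1.40. In each of these array B lay nearer the blastocyst lines. Mmp14 and Adamts2 went the other way, at 1.30 and -0.73, and at -1.05 and -3.52. The origin differences are therefore given without each array of RMAPC-1.

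Mmp23 had the widest origin difference, 2.80 ± 0.47 or 6.98-fold (adjusted p 0.0118), with means of 2.20 ± 0.67 (SD, n = 3 lines) in blastocyst and -0.61 ± 0.71 (SD, n = 3 lines) in bone marrow lines. The highest bone marrow array, array B of RMAPC-1 at 0.77, lay below the lowest blastocyst array, 1.26 in Fi2. It was 3.04 within slides 1 and 3 (adjusted p 0.176), 2.16 without array A of RMAPC-1 and 3.45 without array B. Mmp24 differed by 1.65 ± 0.18 or 3.13-fold (adjusted p 0.00536). Its lowest blastocyst array was 2.85 and its highest bone marrow array 2.72, again array B of RMAPC-1, with the other 5 bone marrow arrays at 0.07 to 1.99. The difference was 1.44 within slides 1 and 3 (adjusted p 0.176) and 1.20 and 2.09 without array A and B of RMAPC-1. Leaving out any 1 line changed neither call. Both were lost on the B arrays alone (2.07 and 1.08).

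Mmp11, a furin-activated enzyme of tissue remodelling, had blastocyst line means of -1.40, -0.57 and 0.17 and bone marrow means of -2.01, -2.16 and -2.45, with -4.33 in RClone-2. The origin difference was 1.61 ± 0.40 (adjusted p 0.0292), and the stem cell lines were 7.63-fold above RClone-2 (2.93 ± 0.52, adjusted p 0.00562). By array the origins overlapped, since array B of RMAPC-1 (-1.40) was above array A of Fi1 (-1.58). The origin call was lost without Fi2, CL19, 3C3 or RMAPC-1 (1.59, 1.71, 1.63 and 1.49) and without array A of RMAPC-1 (1.26), and held without array B (1.96). It was 1.41 within slides 1 and 3 (adjusted p 0.304).

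Adamts1 was at -3.09, -3.65 and -3.29 in the blastocyst lines and -4.59, -5.17 and -6.10 in the bone marrow lines, where 4 of 6 arrays were above background. All 6 blastocyst arrays were above the bone marrow arrays. The difference of 1.94 ± 0.39 (adjusted p 0.018) was lost under 7 of 21 alternatives, among them normexp correction (0.63, adjusted p 0.122), the B arrays alone (1.44) and leaving out Fi1 (1.82, adjusted p 0.0588) or 3C3 (2.00, adjusted p 0.0573). It was 1.25 within slides 1 and 3 (adjusted p 0.188), and 1.71 and 2.18 without array A and B of RMAPC-1. Timp1 differed by 1.07 ± 0.30 (adjusted p 0.0416), from blastocyst means of 5.66, 4.93 and 6.05 and bone marrow means of 4.23, 4.68 and 4.51. The origins overlapped by array, array B of RMAPC-1 at 5.48 lying inside the blastocyst range of 4.89 to 6.13. The Timp1 call was lost under 12 of 22 alternatives, including without array A of RMAPC-1 (0.75, against 1.40 without array B) and on leaving out Fi1, Wk8, CL19, 3C3 or RMAPC-1 (1.01, 0.82, 0.95, 1.17 and 1.09). It was 1.31 within slides 1 and 3 (adjusted p 0.25).

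Mmp16 was lower in the blastocyst lines, at -4.70, -4.43 and -4.59 against -3.98, -3.78 and -3.88. Arrays of the 2 origins did not overlap. The difference was -0.69 ± 0.12 or 1.62-fold (adjusted p 0.0138), lost under 7 of 22 alternatives, among them leaving out 3C3 (-0.64, adjusted p 0.0517) or RMAPC-1 (-0.69, adjusted p 0.0507), normexp correction (-0.20) and no scaling (-0.21). It was -0.67 and -0.72 without array A and B of RMAPC-1. It was -0.59 within slides 1 and 3 (adjusted p 0.228). Its other probe was not above background in either origin. Timp4 had the next widest gap, 1.20 ± 0.41, and did not pass (adjusted p 0.0674). Its 2 Wk8 arrays, at -3.53 and -3.72, were above the other 4 blastocyst arrays (-5.57 to -4.74), and the difference without Wk8 was smaller and passed (0.73, adjusted p 0.0337). For Mmp2, Mmp14, Timp2 and Timp3 the origin differences were -0.33 ± 0.13, 0.20 ± 0.53, -0.08 ± 0.12 and -0.51 ± 0.40, and none passed (adjusted p 0.0995, 0.794, 0.62 and 0.363).

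**Figure D5:**
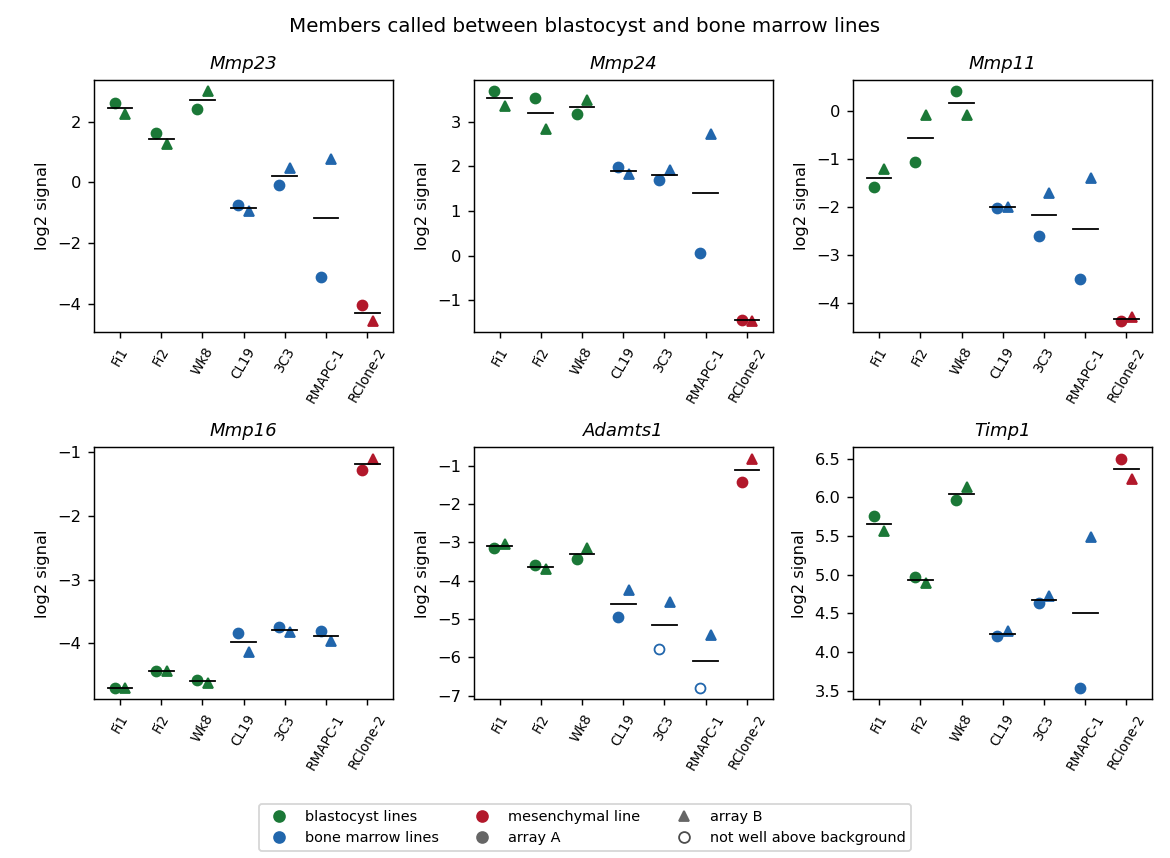
Log2 signal (y axis, each panel on its own scale) on arrays A and B of each line for the 6 members called between the origins with signal above background; bars are line means and open symbols are not well above background. The 2 arrays of RMAPC-1 lie far apart for Mmp23 (-3.12 and 0.77), Mmp24 and Timp1, and close together for Mmp16.

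Genes that control or feed these enzymes were read from lists chosen by function. Beside the counts of these lists, 24.8% of all genes tested were higher and 22.4% lower than in RClone-2, and 32.8% passed between origins. Of 13 regulators of metalloproteinases, 11 were tested, and 7 were lower and 2 higher in the stem cell lines than in RClone-2. Of these Plau and Tfpi2 passed the filter only through RClone-2, and Plat only through stem cell lines. Plau, the urokinase that starts plasmin-driven activation of proenzymes, was above background on 1 of 12 stem cell arrays and differed by -7.41 ± 0.56 (adjusted p 0.00017). Cd44, a hyaluronan receptor that holds metalloproteinases at the cell surface, differed by -6.89 ± 0.77 (adjusted p 0.000875), and Tfpi2, a secreted protease inhibitor, passed background in RClone-2 alone. The membrane-anchored inhibitor Reck and A2m, Lrp1 and Pcsk6 were the other 4 lower genes, and Furin and Plat the 2 higher. Between origins 5 of the 11 passed. Plat, the tissue plasminogen activator, was higher in blastocyst lines by 3.24 ± 0.39 (adjusted p 0.00639), and Pcsk6, a proprotein convertase, differed by -4.22 ± 0.86 and was lower there (adjusted p 0.0181).

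Matrix substrates moved widely. Of 16 listed, 13 were tested, and 8 were lower and 2 higher in the stem cell lines, with a median difference of -4.16. Col3a1, Col1a2 and Fbn1, fibrillar collagen chains and fibrillin 1, differed by -13.22, -11.67 and -9.51. Col3a1 was above background on 1 of 12 stem cell arrays and, like Dcn, passed the filter only through RClone-2. Comp and Vwf, the 2 higher genes, passed only through stem cell lines. Col1a1 and Col1a2, like Cd44 among the regulators, also stand in the mesenchymal marker list, so these counts share genes with it. Comp, cut by Adamts7 and Adamts12, was higher in the stem cell lines by 7.95 ± 0.18 (limma adjusted p 2.11e-06) and not above background in RClone-2. A link between its signal and either enzyme was not tested. Among 10 tested relatives outside the families (ADAMs, Bmp1, meprins and Pappa), 4 were higher than in RClone-2 and 2 lower. Adam23 was 15.1-fold higher in the stem cell lines (3.92 ± 0.36), and Mep1b, not above background in RClone-2, at least 4.06-fold (4.20 ± 0.32). Mep1b passed the filter only through stem cell lines. All 12 AP-1 and ETS factors, which act through the AP-1 and PEA3 motifs searched above, were tested, with 2 higher and 4 lower. Fosl1 differed by -8.61 ± 0.67 (limma adjusted p 0.000201), while Fos was higher in the stem cell lines by 3.15 ± 0.81 (adjusted p 0.022). Etv1 was above background on 1 of 12 stem cell arrays and passed the filter only through RClone-2, so it had to lie higher there. Its difference was -5.96 ± 0.28 (limma adjusted p 2.58e-05). Between origins 2 of the 12 passed, Fosl2 (1.51 ± 0.24) and Etv4 (-1.58 ± 0.44).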

How the data were processed

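Cy3-labelled cRNA, made from 1 µg of RNA with 10 control transcripts added, was hybridized to 14 arrays, 2 for each of 7 rat lines. Per the file headers and the submitters' processing notes, spots were extracted with Agilent Feature Extraction 10.7.3.1. The deposited scanner tables give processed, mean and background signals as intensity values without scaling between arrays. Spot flags in the deposited tables are other values, 0 or 1. The series table deposited by the authors holds log2 values. After sorting, its largest difference from the log2 processed signals of each array was 0. The aligner and annotation behind the probe names are not given in the sources used here.

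From each log2 intensity the array's own 75th percentile (non-control spots) was subtracted. Between 65 and 193 spots per array that the scanner software marked as outliers were left out, and spots of 1 probe were averaged. Tests covered the 24856 of 35522 gene names whose probe passed the well-above-background flag on array A and array B of 1 or more lines. Names are those of the files. RefSeq (GRCr8) holds 44 of the 45 member symbols, Mmp1a being Mmp1 there, and 34 probe accessions matched. A further 8 probes described as family members under other names were left out. Arrays of a line were averaged and a linear model of the 7 line means, with 4 residual degrees of freedom, was fitted by limma 3.58.1 (R 4.3.3) with eBayes moderation. P-values were adjusted over all genes tested by Benjamini-Hochberg, with a threshold of 0.05. Contrasts were blastocyst minus bone marrow lines, and the mean of both origins minus the mesenchymal line. The fit was tested on simulated data. With 14 arrays in 7 lines, their number limits the precision.

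Named genes were the 12 members with the widest called differences in each contrast, every TIMP, Mmp2, Mmp9 and Mmp14, and at most 3 called genes of each other list and contrast. Values of other members were chosen after they were seen. Members and lists were chosen with earlier results of these data known. Alternatives were other background correction, scaling, filters, probe choice, slide terms, arrays alone, and leaving out lines or RMAPC-1 arrays.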

Additional observations from a re-analysis of the deposited data

Results flagged for a closer look

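In 38 groups of 6 arrays (members above background on all 6 arrays of an origin), 3 arrays stood apart from the other 5 by a gap of over 0.625 of the group's range. For independent values chance alone flags about 1 group in 20. This flag used single arrays, and arrays A and B of a line may not be independent, so that rate may not hold here. Adamts2, a procollagen N-proteinase, was at -3.516 on array B of RMAPC-1, with the nearest bone marrow array at -1.33. Timp3 was at -1.906 on the same array, with the nearest at -0.89. Adamts15 was at -5.305 on array A of 3C3, with the nearest at -4.82. None of the 3 genes was called between blastocyst and bone marrow lines. Of these, 2 lie on an array of the line whose arrays differed most for the members.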

How the results depend on the processing

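Of the 22 members called against the mesenchymal line, 15 kept their call under each alternative in which they were tested. Among these, Mmp3, Mmp19, Adamts5, Adamts6, Adamts8, Adamts12 and Adamtsl4 passed the filter only through RClone-2, and Timp3 only through stem cell lines. The filter largely set the direction of those calls, and keeping only genes above background on all arrays left those members out. The count of called members was 9 of 16 tested in that smaller set, and 20 to 22 on leaving out 1 line. It stayed within 1.5 times of 22 otherwise (16 with normexp correction). Between origins the count of 8 was 2 with normexp, 13 with no filter on dim probes (45 tested), 2 with the slide as a block, 0 with a term for the slide pair, 0 within slides 1 and 3, 2 on the B arrays alone, 5 without array A of RMAPC-1 and 2 to 7 on leaving out 1 line. Over all genes 8155 calls between origins became 1262 with normexp, 11011 of 35522 with no filter and 3203 with the slide as a block. They were 2575 on the B arrays alone, 4855 without array A of RMAPC-1 and 3094 to 6213 on leaving out 1 line. The cause of these shifts was not tested. Of the 5 uncalled origin differences followed under the alternatives (Mmp2, Mmp14, Timp2, Timp3 and Timp4), 3 changed sign. Mmp14 (0.20) was -0.063 with spike-in scaling, -0.11 on the A arrays alone, -0.14 without array B of RMAPC-1, and -0.25 to 0.74 on leaving out 1 line. Mmp2 (-0.33) was 0.15 without scaling. Timp2 (-0.08) was 0.32 with quantile normalization, 0.060 with the percentile over detected probes, 0.40 without scaling, where it passed (adjusted p 0.0468), and 0.0089 with the slide as a block, with a term for the slide pair and within slides 1 and 3. No paired analysis was possible because the lines carry no number shared between groups and arrays A and B were averaged within each line. Genes below background have only a bound, and 14 members could not be compared for that reason.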
